A study of Mus musculus with 2 samples.

Results

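The Pcp4, Agt and Gria1 cells were 1361 of the 13278 cell barcodes kept from mouse neural stem cell cultures (10.3%, exact 95% interval 9.74 to 10.8%). They were chosen by their counts of unique molecular identifiers (UMIs, each standing for 1 captured transcript). A cell had at least 2 UMIs of Pcp4, Agt and Gria1 summed, fewer than 20 UMIs of the astrocyte filament gene Gfap, and at most 1 UMI of the division genes Mki67, Top2a, Cdk1, Ube2c and Cenpf summed. Those 9 genes chose the cells, so their levels are a description only. Kept barcodes had at least 500 detected genes and at most 10% mitochondrial UMIs. They made up most of the 14685 barcodes in the matrix.

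The cultures came from neural stem cells of the subventricular zone, a stem cell niche beside the lateral ventricles, of C57/Bl6J mice. The study divided expanded cells between a DMSO vehicle and 1 µM of 20HC, an oxysterol, and sequenced them 3 days after EGF and FGF, the growth factors that keep such cells dividing, had been withdrawn. Each condition was 1 library, and nothing in the labels states how many animals or cultures it pooled. The protocol field of the control library also names the 20HC treatment. Barcodes end in 1 or 2, and no label or file ties either number to a library. The matrix was therefore treated as 1 pooled sample, no comparison of control with 20HC was made, and there are no p-values. Barcode set 1 held 1020 of the cells (10.3% of its 9869 kept barcodes) and barcode set 2 held 341 (10.0% of 3409).

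Astrocytes are glial cells that clear glutamate, buffer potassium and water, and feed neurons. Agt encodes angiotensinogen, the precursor of the angiotensin peptides, which brain astrocytes produce. Gria1 encodes a subunit of the AMPA receptor, a glutamate-gated cation channel, and Pcp4 encodes a small protein that modulates calmodulin, the calcium sensor. Cryab, the 4th gene by which these cells were marked, encodes a small heat shock protein that keeps damaged proteins from aggregating. Glial cells that carry AMPA receptors respond to glutamate released nearby.

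Pcp4, Agt and Gria1 lie on different chromosomes of the mouse (GENCODE M21, build GRCm38). Pcp4 spans chr16:96467606-96525793 on the plus strand, Agt chr8:124556534-124569706 on the minus strand and Gria1 chr11:57011387-57330244 on the plus strand. Cryab spans chr9:50751325-50756636 on the plus strand. The rule groups Pcp4 with Agt, and the 250 bases before the start of these genes are shown to set them side by side, 5′ to 3′ on the gene's own strand, from RefSeq (GRCm38.p6). These pieces are upstream of the first exon. Capitals mark the letters of the motifs found.
Pcp4, chr16:96467356-96467605, plus strand: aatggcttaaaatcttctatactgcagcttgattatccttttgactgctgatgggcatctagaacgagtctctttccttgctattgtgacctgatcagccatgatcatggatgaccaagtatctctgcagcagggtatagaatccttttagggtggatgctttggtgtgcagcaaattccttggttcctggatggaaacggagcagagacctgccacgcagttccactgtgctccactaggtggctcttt
Agt, chr8:124569707-124569956, minus strand: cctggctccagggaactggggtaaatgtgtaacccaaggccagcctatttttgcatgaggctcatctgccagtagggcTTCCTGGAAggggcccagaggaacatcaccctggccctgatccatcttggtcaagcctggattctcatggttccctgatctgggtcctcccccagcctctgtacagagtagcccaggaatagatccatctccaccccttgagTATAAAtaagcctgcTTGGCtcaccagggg
The motifs searched on both strands were the palindrome of NFI, a family of glial transcription factors, its arm TTGGC, TTCNNNGAA (STAT), GAANNTTC (heat shock), TGANTCA (AP-1), CCAAT and TATAAA. The TTGGC arm lies within the NFI palindrome. The Agt piece held TTCNNNGAA beginning 172 bases before the start, TATAAA beginning 30 bases before it and TTGGC beginning 15 bases before it. Of all 32851 promoters in the table, 7.02% held TTCNNNGAA, 12.4% TATAAA and 41.5% TTGGC. None of the 7 motifs was found in the Pcp4 piece. The GC content was 55.6% for Agt and 46.8% for Pcp4.

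A Pcp4 UMI was found in 925 of the cells (68.0%), an Agt UMI in 641 (47.1%) and a Gria1 UMI in 658 (48.3%). More than one of the 3 genes was present in 763 cells (56.1%), and all 3 in 100 cells (7.35%, interval 6.02 to 8.86%). The share with all 3 was 6.08% in set 1 and 11.1% in set 2. Pcp4 alone was found in 337 cells (24.8%), Agt alone in 160 (11.8%) and Gria1 alone in 101 (7.42%). By these counts the cells were a union of partly overlapping groups, most cells carrying few UMIs of the genes that chose them. With so few UMIs, a gene that a cell expressed can have gone uncounted. The part of such misses in these groups was not tested. The 3 genes summed to exactly 2 UMIs in 603 cells (44.3%) and to 10 or more in 52 cells. The highest Pcp4 count in a cell was 64 UMIs.

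Levels are given as CPM, the UMIs of a gene in each 1000000 UMIs of all cells in the group. Intervals in parentheses are exact 95% limits and cover counting error only, not variation between cells or cultures. Pcp4 stood at 622 CPM in set 1 and 595 in set 2, against 49.0 and 41.0 in the other kept barcodes of the same sets. Agt stood at 273 and 340 CPM, against 30.8 and 31.8. Gria1 stood at 203 and 244 CPM, against 26.1 and 33.4. Gfap, which the rule capped, was 1642 and 1645 CPM, with a median of 3 UMIs per cell and at least 1 UMI in 90.0% of the cells.

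Free RNA in the droplets can give a background of such counts, and its level was not measured. Barcodes with 2 or more UMIs of the 3 genes made up 14.2% of kept barcodes, but 2.13% of those with at least 10 UMIs of 3 fibroblast collagen genes (4 of 188, median depth 4447.5 UMIs). They made up 1.49% of those with at least 3 UMIs of Dlx genes, which mark young neurons (15 of 1004, median 2885.5 UMIs). Among barcodes with at least 3 UMIs of 5 oligodendrocyte precursor genes the share was 1.23% (2 of 163). It was higher in 2 small groups: 11.1% of the barcodes with at least 5 UMIs of 4 microglia genes (4 of 36, 3.11 to 26.1%, median 5041 UMIs) and 28.6% of those with at least 5 UMIs of 5 ependymal genes (16 of 56, 17.3 to 42.2%, median 3583 UMIs). The Pcp4, Agt and Gria1 cells had a median depth of 3139 UMIs. Of the 1361 cells, 24 (1.76%) also met the marker count of a fibroblast, microglia, neuroblast, oligodendrocyte precursor or ependymal cell, 11 of them the ependymal one.

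Levels just inside and just outside the limits of the rule were compared as a description. The 603 cells with exactly 2 UMIs of the 3 genes had Cryab at 496 CPM and the neuronal gene Stmn2 at 387. The 1263 barcodes with 1 such UMI that met the other conditions had 400 and 276 CPM. The 118 cells with 15 to 19 Gfap UMIs had Cryab at 571 CPM, and the 104 barcodes just past the Gfap limit had 483 CPM. The 184 cells with 1 division-gene UMI had Cryab at 641 CPM, and the 29 barcodes with 2 such UMIs that met the other conditions had 413 CPM.

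**Figure D1:**
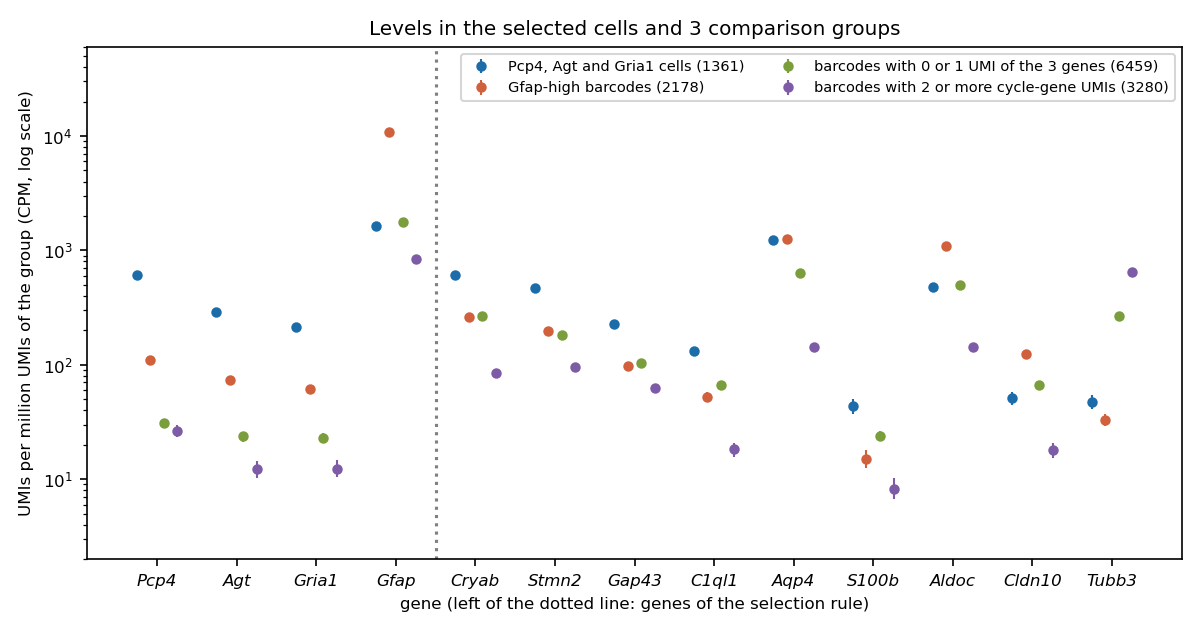
Levels of 13 genes in the Pcp4, Agt and Gria1 cells and in 3 comparison groups, in CPM on a log axis. Points are pooled values and bars exact 95% Poisson intervals. Genes left of the dotted line chose the cells. Right of it, Cryab, Stmn2, Gap43 and C1ql1 were highest in the Pcp4, Agt and Gria1 cells (610.5 CPM for Cryab against 259 in Gfap-high barcodes), and Aldoc was highest in Gfap-high barcodes.

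The cells carried astrocyte genes widely, which fits their label in part. Aqp4, the water channel of astrocyte end-feet, was 1246 CPM in set 1 and 1160 in set 2, with a UMI in 86.2% of the cells. In the fibroblast-marker barcodes that share was 21.8%. Apoe, the lipid carrier, was found in 99.6% of the cells, Mt3, a brain metallothionein, in 99.0%, Sox9, a glial transcription factor, in 73.9% and the glutamate transporter gene Slc1a3 in 66.4%. The 18 astrocyte markers outside the rule summed to 8541 CPM, against 10686 in Gfap-high barcodes and 5778 in all other kept barcodes, which include dividing ones. In other barcodes with at most 1 UMI of the division genes they summed to 7587 CPM. Gjb6, a connexin of mature astrocytes, was nearly absent at 1.13 CPM.

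Defining genes of the oligodendrocyte lineage and of young neurons were near the floor. Sox10, the oligodendrocyte lineage factor, stood at 0.450 CPM, Gpr17, a receptor of oligodendrocyte precursors, at 1.13 and Dcx, a microtubule protein of young neurons, at 0.901. In the precursor-marker barcodes Sox10 was 197 CPM, and in the Dlx-marker barcodes Dcx was 71.2. The myelin genes Mog, Mag, Ermn and Opalin had 0 UMIs, which allows up to 0.676 CPM each. Fibroblast markers summed to 36.9 CPM against 267 in other kept barcodes, and the 5 erythroid markers were all at 0. Microglia markers summed to 107 CPM in set 1 and 3.49 in set 2.

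Ependymal markers were not near the floor. Foxj1, a transcription factor of ciliated cells, was 100.4 CPM, with a UMI in 25.6% of the cells, against 94.4 CPM in Gfap-high barcodes and 650 in the ependymal-marker barcodes. Without the 24 cells that met another cell type's marker count it was 95.8 CPM. The 9 ependymal markers summed to 363 CPM in the cells, 219 in other kept barcodes and 307 in Gfap-high barcodes, and none was at 0 in the cells. Their part in the results that follow was not tested.

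In what follows a gene with at least 30 UMIs is called higher or lower in the cells on 3 conditions: a ratio of CPM + 5 of 1.5 or more, the same sign of the log ratio in set 1 and in set 2, and a comparison level outside the cells' interval. The 9 genes of the rule were not counted. Against all 11917 other kept barcodes, 811 of 13059 genes were called higher (6.21% of those measured) and 929 lower (7.11%). The 12 lowest by the naming rule, among them Cdc20, Hmmr, Pbk and Ccnb1, are genes of cell division, which the choice of cells had limited. Ccnb1, a mitotic cyclin, stood at 5.18 CPM against 132. When ratios were scaled to the median gene, the counts were 608 higher and 1075 lower. The cells were therefore also compared with the 8637 other barcodes that had at most 1 UMI of the division genes.

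Against those non-dividing barcodes, 230 of 12692 genes were called higher (1.81%) and 366 lower (2.88%). Non-dividing, here and below, means only that this limit on the division genes was met. Of 5 division markers outside the rule, Birc5, Pbk, Rrm2 and Mcm3 were still called lower in the cells. The 5 summed to 46.8 against 152 CPM, with a median log2 ratio of -1.28. The part of division in the other lower calls was not tested. Stmn2, Rasl11a, Cryab and Gap43 were among the genes with the largest ratios. Cryab was 607 CPM (581 to 634) in set 1 and 621 (576 to 668) in set 2, with a UMI in 68.8% of the cells, against 264 CPM in the non-dividing barcodes. Its log2 ratio was 1.20. Both sets lay above every comparison group described here. Cryab had been used to name these cells in earlier work on the same matrix, so its level is not independent of their choice.

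Cryab was not particular to glia in these cultures. A Cryab UMI was found in 61.2% of the fibroblast-marker barcodes (409 CPM) and in 12.6% of the Dlx-marker barcodes (48.6 CPM). Among the 2 small heat shock genes called higher in 13 measured members of the chaperone list, the other was Hspb8, a partner of the BAG3 chaperone, at 97.3 against 59.6 CPM. Hspb1, another small heat shock gene, stood at 0.676 CPM and was not called. The list's median log2 ratio was -0.06, beside 0.04 over all genes measured, of which 1.81% were called higher.

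Stmn2, a microtubule regulator of growing axons, was 460 CPM (437 to 483) in set 1 and 491 (451 to 533) in set 2, against 186 in the non-dividing barcodes. The levels in both sets were more than those of any comparison group. Gap43, a growth cone protein that binds calmodulin, was 236 and 199 CPM against 102. C1ql1, a secreted protein related to complement C1q, was 131 and 135 CPM against 62.4. Dner, a neuronal Notch ligand, was 126 against 60.5 CPM, and Chl1, a cell adhesion protein of neurites, 39.6 against 17.3. Rasl11a, a Ras-like GTPase gene, stood at 124 against 49.0 CPM.

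The lists that hold Stmn2 and C1ql1 did not move together with them. Over all genes measured against the non-dividing barcodes, 1.81% were called higher and 2.88% lower, with a median log2 ratio of 0.04. Of the 13 neuroblast markers, Stmn2, Stmn4 and Nrxn3 were called higher and 8 were called lower, with a median log2 ratio of -1.04. The lower ones included Dlx1 at 8.33 against 48.3 CPM, Tubb3, a neuronal tubulin, at 47.1 against 190, and Gad2, an enzyme of GABA synthesis, at 3.60 against 16.6. Stmn2 itself was 147 CPM in the Dlx-marker barcodes, with a UMI in 23.2% of them, below its level in the Pcp4, Agt and Gria1 cells. Of 9 measured ependymal markers, 5 were called higher against all other kept barcodes, where 6.21% of all genes were. They were Foxj1, Ccdc153, Dynlrb2, Tekt1 and Cfap126. Against the Gfap-high barcodes compared below, Ccdc153 and Tmem212 were called higher of 8 measured and 0 lower, beside 1.98% of all genes called higher. Of 8 ependymal markers measured against the non-dividing barcodes none was called. Among the 10 oligodendrocyte precursor markers, C1ql1 and Lhfpl3 were called higher and Sox10, Gpr17 and Pllp lower, with a median of -0.37. C1ql1 was 20.7 CPM in the precursor-marker barcodes, again below its level here. Of the 10 progenitor genes 5 were called lower and 0 higher, although the list summed to 6169 CPM in the cells and 5745 in the non-dividing barcodes. The lower ones included Egfr, the EGF receptor, at 20.7 against 44.8 CPM, Mfge8 at 65.5 against 180, Btg2 at 58.8 against 114 and Hes6 at 35.4 against 106.

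Gria1 chose the cells, and other genes of glutamate receptors were measured beside it. Of 17 measured genes of AMPA receptor subunits and their partners, 4 were called higher and 0 lower, with a median log2 ratio of 0.27. Over all genes measured, 1.81% were called higher and 2.88% lower, with a median of 0.04. Gria2, the subunit that makes the channel impermeable to calcium when edited, stood at 55.0 CPM in set 1 and 76.7 in set 2, against 30.02 in the non-dividing barcodes. Cacng4, an auxiliary subunit that slows channel closing, was 79.2 and 87.2 CPM against 41.3. Shisa9, another auxiliary protein, was 27.0 against 14.1 CPM, and Gria4 5.18 against 1.54. Gria3 was 25.2 CPM in set 1 and 12.2 in set 2, and was not called, since its ratio was under 1.5 and the sets went opposite ways against their non-dividing barcodes. Other glutamate receptor genes, Grik4 (11.3 against 5.50 CPM) and Grin3a (12.6 against 5.004 CPM), were called higher, out of 11 measured.

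Agt, which chose the cells, encodes the substrate of renin. Of the 14 other listed genes of the renin-angiotensin system, 4 could be measured and none was called, where the shares over all genes were 1.81% higher and 2.88% lower. Atp6ap2, the prorenin receptor, was 80.4 CPM against 72.7. Among 18 calmodulin genes and genes of calmodulin-binding proteins, Gap43 and Camk2b, a neuronal calcium-calmodulin kinase subunit, were called higher, and none lower.

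Genes of astrocyte transport were split. Of 20, the bicarbonate cotransporter gene Slc4a4 (159 against 102 CPM), the zinc transporter gene Slc39a12, the potassium channel gene Kcnj16 and the sodium pump subunit gene Atp1b2 (1033 against 678 CPM) were called higher. The cystine transporter gene Slc7a11 (10.6 against 19.4 CPM) and the GABA transporter gene Slc6a11 were called lower. Over all genes measured, 1.81% were called higher and 2.88% lower. S100b, a calcium-binding protein of glia, stood at 43.2 against 21.0 CPM, and Hopx, a homeodomain protein of astrocytes and quiescent stem cells, at 40.1 against 17.7. The metallothioneins Mt1 (10669 against 6564 CPM) and Mt2 (3022 against 1945 CPM) were called higher. So were the acute-phase genes Serpina3n and Cp of 12 measured reactive astrocyte genes. Against the Gfap-high barcodes compared below, Mt1, Mt2, Hopx, Slc4a4, Kcnj16 and Atp1b2 were not called. S100b, Slc39a12, Serpina3n and Cp were called higher there too.

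Few genes of the lists tied to the study's question were called, and with 1.81% of all genes called higher and 2.88% lower, few calls would be made in lists of this size at the background rate. Of 14 measured Hedgehog pathway genes none was called, and the median log2 ratio was 0.03. Gli2, the transcription factor named in the study's title, was 3.83 against 5.55 CPM, and Ptch1, the Hedgehog receptor, 13.7 against 13.8. Of 12 receptors and targets of LXR, a nuclear receptor that oxysterols activate, only the apolipoprotein gene Apod was called, lower at 4.50 against 16.9 CPM, and the median was 0.14. Abca1, an LXR-driven cholesterol exporter, was 90.5 against 84.1 CPM. None of 21 cholesterol synthesis genes and none of 11 fatty acid synthesis genes was called. These values are pooled over both conditions.

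**Figure D2:**
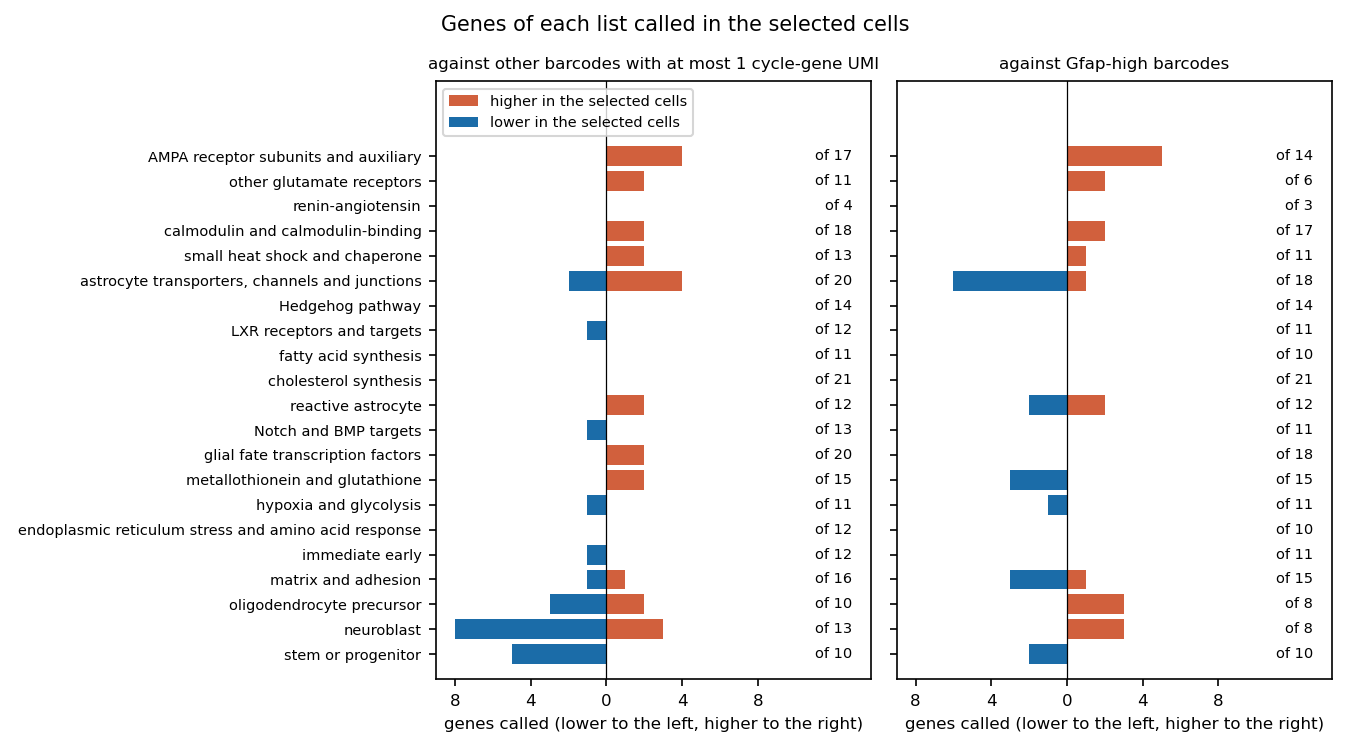
Number of genes of each list called higher (right of 0) or lower (left of 0) in the Pcp4, Agt and Gria1 cells, with the number measured at the right edge. The left panel compares them with other barcodes that had at most 1 division-gene UMI and the right panel with Gfap-high barcodes. In the left panel 8 of 13 neuroblast genes and 5 of 10 progenitor genes were lower, beside 2.88% of all genes. In the right panel 6 of 18 astrocyte transport genes were lower, beside 1.55% of all genes.

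The non-dividing barcodes mix several cell types, so a narrower comparison used the 4544 barcodes with 0 or 1 UMI of the 3 genes, the same Gfap and division limits and at least 2 UMIs of the astrocyte genes Slc1a3, Slc1a2, Aldoc and Clu. There 185 of 11808 genes were called higher (1.57%) and 243 lower (2.06%). Cryab (288 CPM in those barcodes), Stmn2 (201), Gap43 (115), C1ql1 (83.2), Gria2 (34.1), Cacng4 (45.7), S100b (25.2) and Hopx (15.6) were still called higher in the Pcp4, Agt and Gria1 cells. Genes called higher above but not called there included Gria4, Shisa9, Grik4, Mt2 and Cp. The progenitor genes Egfr, Mfge8, Btg2 and Hes6 were again called lower. Without the astrocyte-gene condition, over all 6459 barcodes with 0 or 1 such UMI, 429 of 12239 genes were called higher (3.51%) and 561 lower (4.58%). In that wider comparison the division-linked gene Rrm2 stood at 15.3 against 82.9 CPM and the cyclin gene Ccnd2 at 353 against 1381.

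Depth differed between these groups. The median was 3139 UMIs in the Pcp4, Agt and Gria1 cells and 2467 in the 6459 barcodes. Each cell was therefore thinned to 1500 UMIs, which left out 52 of the cells and 1092 of those barcodes. A Cryab UMI was then found in 50.1% of the cells against 23.6%, a Stmn2 UMI in 32.1% against 16.0% and an Aqp4 UMI in 72.5% against 43.0%. Shares of C1ql1 were 16.7% and 9.43%, and of Gria2 7.87% and 3.75%. The differences were present at equal depth.

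Cryab was also read the other way round, from cells binned by their Cryab count without use of the 3 genes. The bins include the Pcp4, Agt and Gria1 cells, which Cryab had been used to name, so the shares are a description only. In Gfap-low, non-dividing barcodes thinned to 1500 UMIs, a UMI of Pcp4, Agt or Gria1 was found in 19.7% of the 4756 cells with 0 Cryab UMIs (18.6 to 20.9%). The share was 37.8% at 1 Cryab UMI (1160 cells), 44.0% at 2 (473 cells) and 43.9% at 3 or more (287 cells). Sets 1 and 2 gave 20.2% and 18.4% in the lowest bin and 42.9% and 46.8% in the highest. Aqp4 went from 604 CPM in the lowest bin to 1268 in the highest. Tubb3, the neuronal tubulin gene, went from 316 to 58.1 CPM. The bins thus differed in other marker genes as well, and the part of cell type mix in the shares was not tested.

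**Figure D3:**
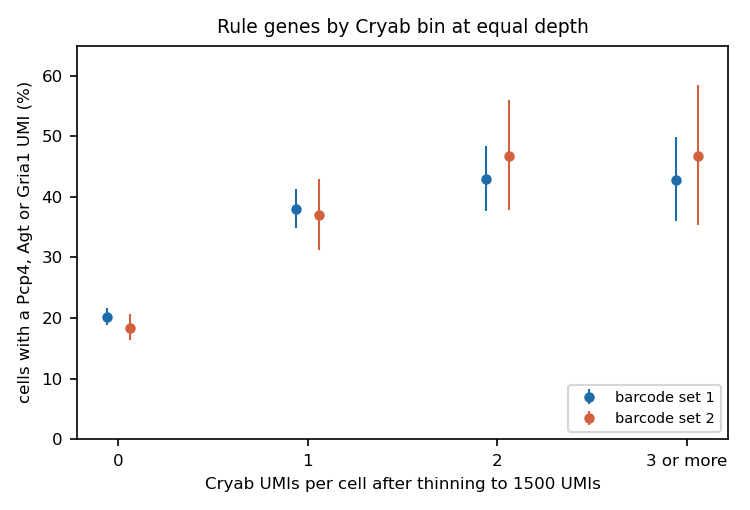
Share of cells with at least 1 UMI of Pcp4, Agt or Gria1 (%), by Cryab UMIs per cell, in Gfap-low, non-dividing barcodes thinned to 1500 UMIs. Points are the 2 barcode sets and bars exact 95% binomial intervals. The share was about 20% with no Cryab UMI (20.2% and 18.4%) and over 40% with 2 or more.

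The nearest other cells were the 2178 Gfap-high barcodes, with at least 20 Gfap UMIs and at most 1 division-gene UMI. Their median depth was 3375.5 UMIs. Against them 221 of 11162 genes were called higher in the Pcp4, Agt and Gria1 cells (1.98%) and 173 lower (1.55%). The higher genes included Meg3, a long noncoding RNA (284 against 109 CPM), Cacng4 (81.3 against 29.9), Lhfpl3 (63.7 against 23.1), C1ql1 (132 against 52.2), Nrp2, a semaphorin receptor (77.0 against 30.9), and the transcription factor gene Tshz2 (76.6 against 30.8). Cryab stood at 259 CPM, Stmn2 at 198 and Gap43 at 97.7 in the Gfap-high barcodes, and all of them were called higher in the cells. The AMPA list had 5 of 14 genes called higher (Gria2, Gria3, Gria4, Cacng4 and Shisa9) and 0 lower.

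Among astrocyte markers the calls ran mostly the other way. Of 18 such markers outside the rule, 7 were called lower and only S100b higher, with a median log2 ratio of -0.41 beside 0.04 over all genes. Of all genes measured, 1.55% were called lower and 1.98% higher. Aldoc, a brain form of aldolase, was 499 CPM in set 1 and 430 in set 2, with 1083 in Gfap-high barcodes. Slc1a2, the main glutamate transporter gene of astrocytes, was 313 and 329 CPM, with 500 there. Glul, which turns glutamate into glutamine, stood at 137 against 214 CPM and the claudin gene Cldn10 at 51.1 against 125. Thrsp, a regulator of fat synthesis, stood at 154 against 409 CPM, the thyroid hormone transporter gene Slco1c1 at 11.3 against 45.9 and the neural transcription factor gene Pax6 at 22.5 against 69.5. Pfkp, an enzyme of glycolysis, was 84.5 against 181 CPM. The Hedgehog and LXR lists had 0 genes called in either direction here, of 14 and 11 measured.

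Gfap-high barcodes with 2 or more UMIs of Pcp4, Agt and Gria1 (419 of the 2178, 19.2%) met every condition of the rule but the Gfap limit. Against those 419, a comparison added after the other values were known, 216 of 9920 genes were called higher in the cells (2.18%) and 69 lower (0.696%). The calls of Cryab (476 CPM in the 419), Stmn2 (316), Gap43 (177), Cacng4 (52.5) and Lhfpl3 (55.0) were lost. Of 11 measured genes of the AMPA list only Gria3 was called higher and 0 lower, beside 2.18% of all genes called higher. The calls of Gria2 and Shisa9 were lost as well, and Gria4 had too few UMIs to be measured. The ratio of Slco1c1 turned, at 11.3 against 9.77 CPM, and was not called. C1ql1 (132 against 62.9 CPM), Tshz2 (76.6 against 39.7), Nrxn3, a synaptic adhesion gene (31.3 against 15.9), and S100b (43.2 against 25.7) were called higher here too. Aldoc (481 against 826 CPM), Pfkp (84.5 against 148), Pax6 (22.5 against 38.5) and Lpar1, a lysophosphatidic acid receptor gene (63.3 against 114), were called lower here too. Cryab, Stmn2 and Gap43 were thus nearer the cells' level in Gfap-high barcodes that held the 3 genes than in Gfap-high barcodes at large.

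**Figure D4:**
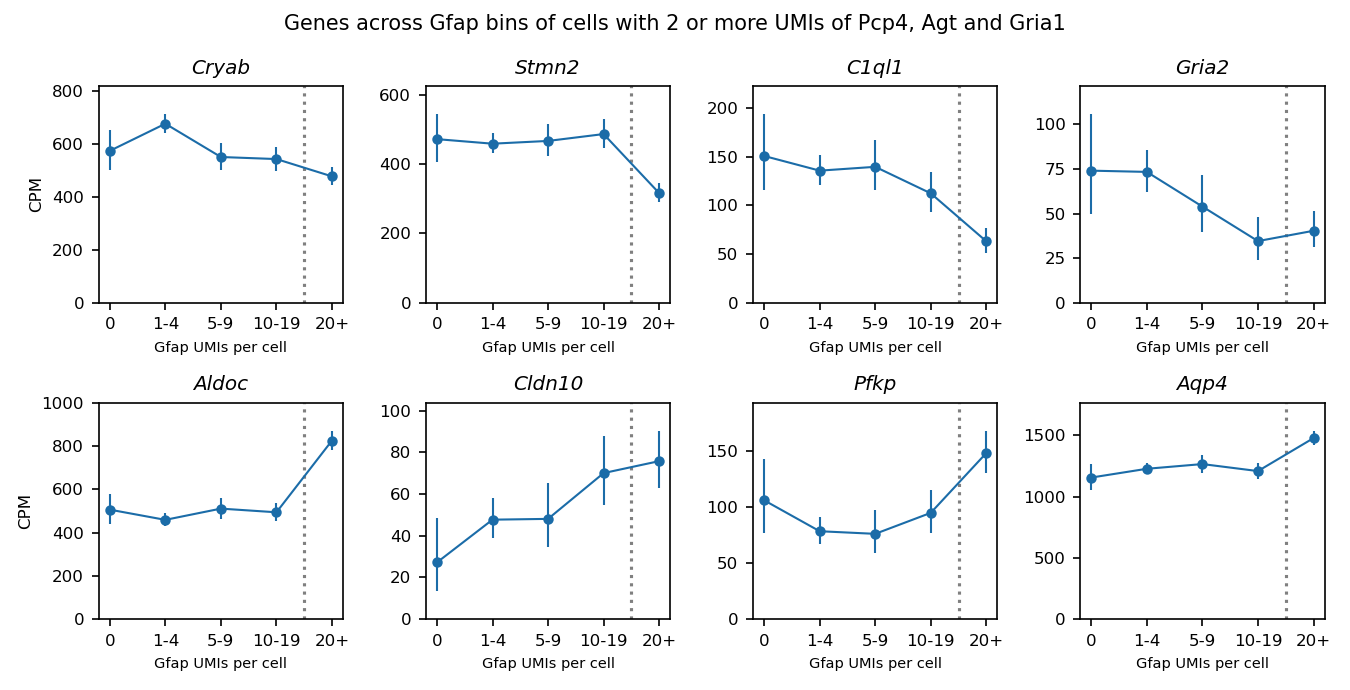
Levels of 8 genes (CPM, axes from 0) by Gfap UMIs per cell, in non-dividing cells with 2 or more UMIs of Pcp4, Agt and Gria1; bars are exact 95% Poisson intervals. Left of the dotted line are the Pcp4, Agt and Gria1 cells and right of it the 419 barcodes with 20 or more Gfap UMIs. Aldoc stood near 500 CPM in every bin below the limit and at 826 above it, and C1ql1 went from 151 to 62.9 CPM.

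Within the cells, Gfap itself varied from 0 UMIs in 136 cells to 19. Aldoc took no steady direction below the limit, at 506, 459, 511 and 494 CPM in cells with 0, 1 to 4, 5 to 9 and 10 to 19 Gfap UMIs. Stmn2 was likewise between 458 and 486 CPM over those bins. Gria2 was 74.1, 73.4, 53.9 and 34.5 CPM over the same bins, and the intervals of the second (62.3 to 85.8) and the last (24.2 to 47.8) did not overlap. Cldn10 went the other way, at 27.2 CPM (13.6 to 48.6) with no Gfap UMI and 70.0 (54.9 to 88.0) in the highest bin. Pcp4 was 657 CPM with no Gfap UMI and 442 in the highest bin.

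The number of UMIs of the 3 genes went with several others. From cells with 2 such UMIs to those with 3 or 4 and those with 5 or more, Cryab was 496, 645 and 766 CPM. Stmn2 was 387, 448 and 643 CPM, Gap43 179, 236 and 297, and Gria2 47.4, 64.1 and 79.1. Aldoc went from 512 to 405 CPM and Gfap from 1930 to 1324. The median depths of these cells were 3020, 3126.5 and 3588.5 UMIs, and the part of depth in these shifts was not tested.

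Cells chosen through Pcp4 and cells chosen through Agt were also compared with each other. There were 482 cells with at least 2 Pcp4 and 0 Agt UMIs and 223 with at least 2 Agt and 0 Pcp4 UMIs, with median depths of 3221 and 3054 UMIs. Of 7384 genes, 416 were called higher in the Pcp4 cells (5.63%) and 260 lower (3.52%). A call here used the interval of the Pcp4 cells only, so counting error in the Agt cells was not covered. How many genes groups of this size would give without a difference was not tested. Cryab was 646 CPM (607 to 687) in the former and 675 (616 to 739) in the latter, and was not called. Aqp4, at 1094 and 1493 CPM, and Stmn2, at 461 and 536, were not called either.

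The Pcp4 cells had more Gria2 (85.2 against 27.3 CPM), more Gap43 (276 against 180) and more Igfbp2, a binding protein of insulin-like growth factors (96.5 against 28.7). Of 14 measured metal-binding and antioxidant genes 4 were called higher in them, 0 lower and 10 neither, beside 5.63% of all genes called higher. Mt2 stood at 3572 against 2227 CPM, Mt3 at 5509 against 3250 and Gstm1, a glutathione transferase, at 423 against 260. Id1 (450 against 266 CPM) and Id3 (919 against 476), inhibitors of differentiation that BMP signals induce, were also higher. Contractile genes Acta2 (115 against 41.7 CPM) and Tagln (62.7 against 23.0) were called too, but 5 cells held 26.9% of the Acta2 UMIs of all the Pcp4, Agt and Gria1 cells. The smooth muscle marker list summed to 324.5 CPM in the Pcp4 cells and 161 in the Agt cells, and the microglia list to 134 and 10.1. Their part in these differences was not tested.

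Of 10 measured hypoxia and glycolysis genes 5 were called higher in the Agt cells and 0 lower, beside 3.52% of all genes. Ldha, lactate dehydrogenase, was 625 CPM against 402 in the Pcp4 cells, the hypoxia-induced carbonic anhydrase gene Car9 28.7 against 8.77, the peptide gene Adm 50.3 against 10.7 and the glucose transporter gene Slc2a1 40.2 against 21.9. Hspa5, the chaperone of the endoplasmic reticulum, was 391 against 223 CPM. Ramp1, a subunit of the CGRP receptor, was 654 against 326 CPM, Entpd2, an enzyme that breaks down extracellular ATP, 253 against 126, and Fn1, fibronectin, 84.8 against 35.7. Atp6ap2, the prorenin receptor gene, was 129 against 61.4 CPM, and it was 1 of 2 renin-angiotensin genes that could be measured in this split.

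Intervals were wider in the 101 cells with UMIs of Gria1 alone. Ramp1 was 414 CPM (347 to 490) in them, Gria2 52.5 (30.6 to 84.1) and Mt3 3903. Cryab was 494 CPM (421 to 577), below its level in the Pcp4 cells.

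**Figure D5:**
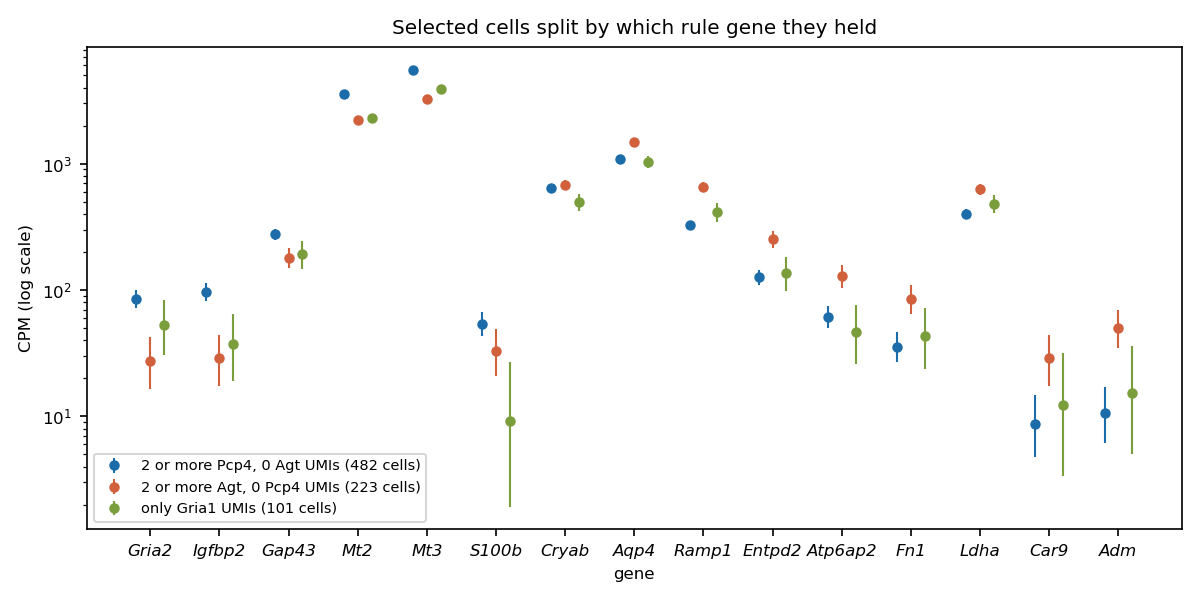
Levels of 15 genes (CPM, log axis, exact 95% Poisson intervals) in cells with 2 or more Pcp4 and 0 Agt UMIs, with 2 or more Agt and 0 Pcp4 UMIs, and with Gria1 UMIs only. Gria2, Igfbp2 and Mt3 were highest in the Pcp4 cells, Ramp1, Entpd2, Ldha and Adm in the Agt cells, and Cryab was alike in these 2 (646 and 675 CPM).

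The barcode sets were compared within the cells. Of 9254 genes, 194 were called higher in set 2 (2.10%) and 248 lower (2.68%), here with no second set as a check. Among genes with at least 200 UMIs in the set where they were higher, none of the 8 largest ratios towards set 2 was called, and all of the 8 largest towards set 1 were. Fabp7, a fatty acid binding protein of radial glia, led the former, at 1740 CPM in set 2 and 1161 in set 1. With fewer UMIs in set 2, the contractile genes Acta2 (113 against 55.3 CPM), Tagln (91.6 against 23.1) and Myl9 (158 against 102) were called higher there. Apoe was 3966 CPM in set 2 and 8087 in set 1, and other kept barcodes differed the same way, at 2902 and 5689. H2afj, a histone variant gene, was 44.5 and 133 CPM, with a log2 ratio of -1.48, beside -1.40 in the other kept barcodes. Lyz2, a lysozyme gene of macrophages, was 2.62 and 94.1 CPM, but 92.0% of its UMIs lay in 5 cells. Because neither number is tied to a condition, none of these values compares control with 20HC.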

How the data were processed

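Single cells of the cultures were captured with version 1 of the Chromium 3′ kit (10x Genomics), per the labels' protocols. Reads had been processed with Cell Ranger 2.1.1 against mm10, per the submitters' processing notes. The deposited values are whole UMI counts, not normalized, of 28692 genes in 14685 barcodes and 41462326 UMIs. Cells and lists were chosen with earlier results of these data known, and Cryab, Stmn2 and C1ql1 were among the genes then seen to lead.

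Counts were summed per group and expressed as CPM with exact Poisson 95% intervals; shares carry exact Clopper-Pearson intervals, and a count of 0 allows 3 counts. Log2 ratios used CPM + 5. With 1 pooled sample no test was possible, so genes were called by size. Named genes were the largest and smallest called ratios at 100 or more UMIs and a UMI in at least 10% of the higher group (20 and 12 against other kept barcodes, 12 and 12 against Gfap-high barcodes, 10 and 10 against barcodes with 0 or 1 UMI), the 8 largest and 8 smallest in the set comparison (200 UMIs in the higher set) and the Pcp4 against Agt comparison (100 UMIs over both), there whether called or not, the AMPA, renin-angiotensin, heat shock, transporter, Hedgehog and LXR lists and leading genes of the other lists. Further genes in the text were picked with their values in view. Scrublet (scanpy 1.11.5) marked 239 of 9869 barcodes in set 1 (2.42%) and 11 of 3409 in set 2 (0.323%), where 7.90% and 2.73% were expected. Marked barcodes were kept, 7 of the Pcp4, Agt and Gria1 cells among them, and doublets left were not measured. The sets shared 48 barcode sequences, which 13 of the cells carried. The calls were checked on simulated counts against Gfap-high barcodes (11169 genes). Of 50 doubled genes 100% were called, of 50 halved genes 98%, and of genes changed 1.5-fold 30%. The simulated counts held counting error only, with no variation between cells, and the changed genes stood at 20 CPM or more. Changes in genes below that level and calls between smaller groups, such as the Pcp4 and Agt cells, were not simulated. Of the 14 marker lists the erythroid one had no UMI in the cells. GENCODE M21 held 28416 of the gene IDs (99.0%). Seed 1, Python 3.11.15, numpy 2.4.6, scipy 1.17.1, pandas 2.3.3 and matplotlib 3.10.9 were used.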

Additional observations from a re-analysis of the deposited data

Results flagged for a closer look

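Barcodes that the cell filter left out, which the comparisons above do not use, also held Pcp4, Agt and Gria1. Of the 1407, 86 met the other conditions of the rule (6.11%, 4.92 to 7.49%), where a count of 0 would have allowed 0.213%. More than 10% mitochondrial UMIs had removed 76 of them and fewer than 500 genes 15. Their median depth was 1561 UMIs, and Cryab stood at 341 CPM, Aqp4 at 1240 and Stmn2 at 312.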

How the results depend on the processing

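No paired analysis was possible because each condition was 1 library and no barcode could be given a condition, which also leaves no replicate to leave out. The share of kept barcodes (10.3%) was 19.8% with at least 1 UMI of the 3 genes and 5.71% with at least 3. It was 5.05% without Pcp4 in the sum, 7.21% without Agt and 7.61% without Gria1. With no Gfap limit it was 13.4%, with Gfap under 10 it was 7.95%, with 0 division-gene UMIs 8.86%, with at most 5% mitochondrial UMIs 9.37% and thinned to 1500 UMIs 6.34%. Other settings moved it by less than its interval. Counts of higher and lower genes against other kept barcodes (811 and 929) were 90 and 405 at a fold of 2 and 230 and 366 against non-dividing barcodes. The higher count was 1555 with CPM + 1 and 1295 in set 2 alone. Against Gfap-high barcodes (221 and 173) they were 42 and 25 at a fold of 2, 486 and 336 with CPM + 1 and 365 and 271 in set 2 alone, and the lower count was 69 against those with at least 2 UMIs of the 3 genes. Against barcodes with 0 or 1 such UMI (429 and 561) they were 29 and 198 at a fold of 2, 880 and 965 with CPM + 1 and 185 and 243 with the astrocyte-gene condition, and the higher count was 771 in set 2 alone. The cause was not tested. Of 760 ratios of named genes under the alternatives, 566 moved by less than their interval, 193 moved further and 1 turned, Slco1c1 to 0.14 (log2) against Gfap-high barcodes with at least 2 UMIs of the 3 genes. The call was lost in 15 of the 760. Removing the 24 cells that met another cell type's marker count, an alternative added after seeing the data, gave 836 and 960, 218 and 181, and 445 and 606 genes in the same comparisons.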

Other observations

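Barcodes with at least 5 UMIs of 5 ependymal genes were few but often held the 3 genes. Of the 16 with 2 or more UMIs of Pcp4, Agt and Gria1, 11 met the whole rule. Pcp4 stood at 167 CPM in all 56, Gria1 at 74.3 and Agt at 55.7. Stmn2 was 376 CPM there, with a UMI in 55.4% of them, and S100b was 135 CPM. Cryab was 167 CPM, below the level in the Pcp4, Agt and Gria1 cells.

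In the Pcp4, Agt and Gria1 cells the matrix proteoglycan gene Ncan (528 against 347 CPM) was called higher than in other barcodes with at most 1 division-gene UMI, and fibronectin, Fn1, was called lower, out of 16 matrix and adhesion genes measured, where 1.81% of all genes were called higher and 2.88% lower.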
